A study of Drosophila melanogaster with 9 samples.

Results

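The receptor tyrosine kinase *Alk*, its ligand *jeb* and 8 genes that act between such receptors and the kinase ERK (*drk*, *dos*, *csw*, *Sos*, *C3G*, *Nf1*, *ksr* and *Dsor1*) were followed in the heads of *Drosophila melanogaster* that carried a loss-of-function or a gain-of-function allele of *dLmo*. Members were taken by their gene symbol in the array annotation, with every probe set that names only that gene kept. All 10 genes were found, on 13 of the 18769 probe sets tested. A probe set is a group of short oligonucleotides that together give 1 intensity for a transcript. *Nf1* had 3 probe sets, *C3G* had 2 and each of the other genes had 1, and where a gene had several they are numbered from the brightest. RNA from heads of adult male flies, 2 to 3 days old per the labels and untreated, was hybridized to Affymetrix Drosophila 2.0 arrays. There were 3 arrays for *EP1306*, the *dLmo* loss-of-function mutant, 3 for *BxJ*, the *dLmo* gain-of-function mutant, and 3 for *w;iso*, a *white* mutant stock isogenic for chromosomes II and III that was the control and is called so below. Both mutant lines had been outcrossed to this stock, which served as the genetic background control. *dLmo* is X-linked, and whether X chromosome sequence near each allele still differs from the control was not tested. The labels describe 1 pool of 600 flies for each genotype whose RNA was divided in 3, while the series design describes 3 groups of 200 heads. If the RNA was only divided, p-values measure a spread between arrays that may be technical.

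ALK is activated by the secreted protein Jelly belly, the product of *jeb*. Receptor tyrosine kinases of this kind recruit adaptor proteins and the exchange factor Son of sevenless, which loads Ras with GTP. GTP-bound Ras starts the kinase cascade from Raf through MEK to ERK, and neurofibromin, the product of *Nf1*, ends the signal by driving GTP hydrolysis on Ras. In the fly, Jelly belly and ALK are known for the formation of the visceral muscle in the embryo and for signaling between neurons in the visual system and brain.

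The gene that the alleles hit was read first. *Bx*, another name of *dLmo*, was measured by 2 probe sets, which are named only in a supplementary table of the study. The suffix of both marks oligonucleotides shared by several transcripts, so part of their signal may come from another transcript. The brighter *Bx* probe set lay between 106 and 176 in *EP1306*, between 623 and 676 in *BxJ* and between 115 and 215 in the control, in intensity units. The log2 intensity was higher in *BxJ* than in the control by 1.84 (adjusted p = 0.025 from limma) and 1.65 (adjusted p = 0.00905) on the 2 probe sets. The call on the brighter probe set was kept in 4 of the 9 fits without 1 array (adjusted p up to 0.105). It was lost when *BxJ* replicate 1, 2 or 3, *EP1306* replicate 3 or control replicate 2 was left out. The call on the dimmer one was kept in 9 of 9. In *EP1306* the differences were -0.21 and -0.42, and neither passed the test (adjusted p = 0.818 and 0.460 from limma). The dimmer probe set lay between 21.9 and 22.5 in *EP1306*, between 124 and 157 in *BxJ* and between 23.7 and 46.0 in the control, so every *EP1306* array was below every control array (95% interval of the difference -0.81 to -0.03), whereas the brighter one overlapped. All differences are of log2 of the intensity plus 16. Adjusted p-values (Benjamini-Hochberg) take in the 18769 probe sets, and a probe set is called at an adjusted p under 0.05. The array medians lay between 4.997 and 5.08 on this scale, and the number of arrays limits the precision. All 5 measured neuron markers, all 5 glial markers and all 3 photoreceptor markers had means above 5.08. The hybridization spike-in controls differed between the genotypes, with mean log2 intensities of 9.39 ± 0.458 in *EP1306*, 9.23 ± 0.492 in *BxJ* and 10.63 ± 0.695 in the control (SD, n = 3 each, over 18 probe sets).

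*Alk* was the only member whose arrays were fully ordered by genotype. Its intensity was 435, 456 and 596 in *EP1306*, 322, 352 and 339 in *BxJ* and 361, 402 and 410 in the control. Every *EP1306* array lay above every control array, and every control array above every *BxJ* array, an order that 0.336% of all probe sets tested shared (0.451% of the 7989 brighter ones, with an intensity of at least 50 on at least 3 arrays). The receptor's log2 difference from the control was 0.32 in *EP1306* (standard error 0.11, adjusted p = 0.370 from limma) and -0.20 in *BxJ* (standard error 0.11, adjusted p = 0.468 from limma). Between the mutants, *EP1306* was higher than *BxJ* by 0.52 (95% interval 0.26 to 0.78), which did not pass the test over all probe sets (adjusted p = 0.0988 from limma). In a fit restricted to those 7989 probe sets, this difference passed (adjusted p = 0.0282 from limma), as did the F-test over the 3 genotypes (adjusted p = 0.0495). In that fit 4.19% of probe sets were called between the mutants and 6.1% by the F-test. The difference from the control was not called in *EP1306* (adjusted p = 0.154, with 5.34% of probe sets called) or in *BxJ* (adjusted p = 0.412, with 1.69% called). By exact permutation over the 280 splits of the 9 arrays, the F statistic of *Alk* had p = 0.00357, the smallest value this design allows. The brightest *EP1306* array, replicate 3, carried part of the difference between *EP1306* and the control, which was 0.18 without it. *Alk* was named by the study from these same arrays, so its order is a description of them. Apart from the arrays, the study reported higher *Alk* RNA in whole *EP1306* flies by quantitative PCR, but did not find the decrease in *BxJ*. It also reported higher *Alk* RNA in other *dLmo* loss-of-function alleles, and more ALK protein in *EP1306* heads by western blot. Those measurements were not analysed here.

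*jeb* was read close to the median of the arrays in every genotype. Its intensity was 15.1, 16.02 and 18.6 in *EP1306*, 15.7, 12.5 and 15.6 in *BxJ* and 17.4, 16.01 and 25.1 in the control. Only 2 of the 9 arrays placed the ligand above the highest array median. All *BxJ* arrays were below all control arrays, although the lowest control array was separated from the highest *BxJ* array by less than 1 intensity unit. The *EP1306* arrays overlapped with those of both other genotypes. The log2 difference from the control was -0.12 in *EP1306* (95% interval -0.34 to 0.11) and -0.21 in *BxJ* (95% interval -0.43 to 0.02), with adjusted p-values of 0.733 and 0.435 from limma. Without control replicate 3, the brightest array, the differences were -0.0074 and -0.10. The 16 added before taking log2 compresses the differences of so dim a probe set, and with 1 added instead the difference in *BxJ* was -0.38.

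**Figure D1:**
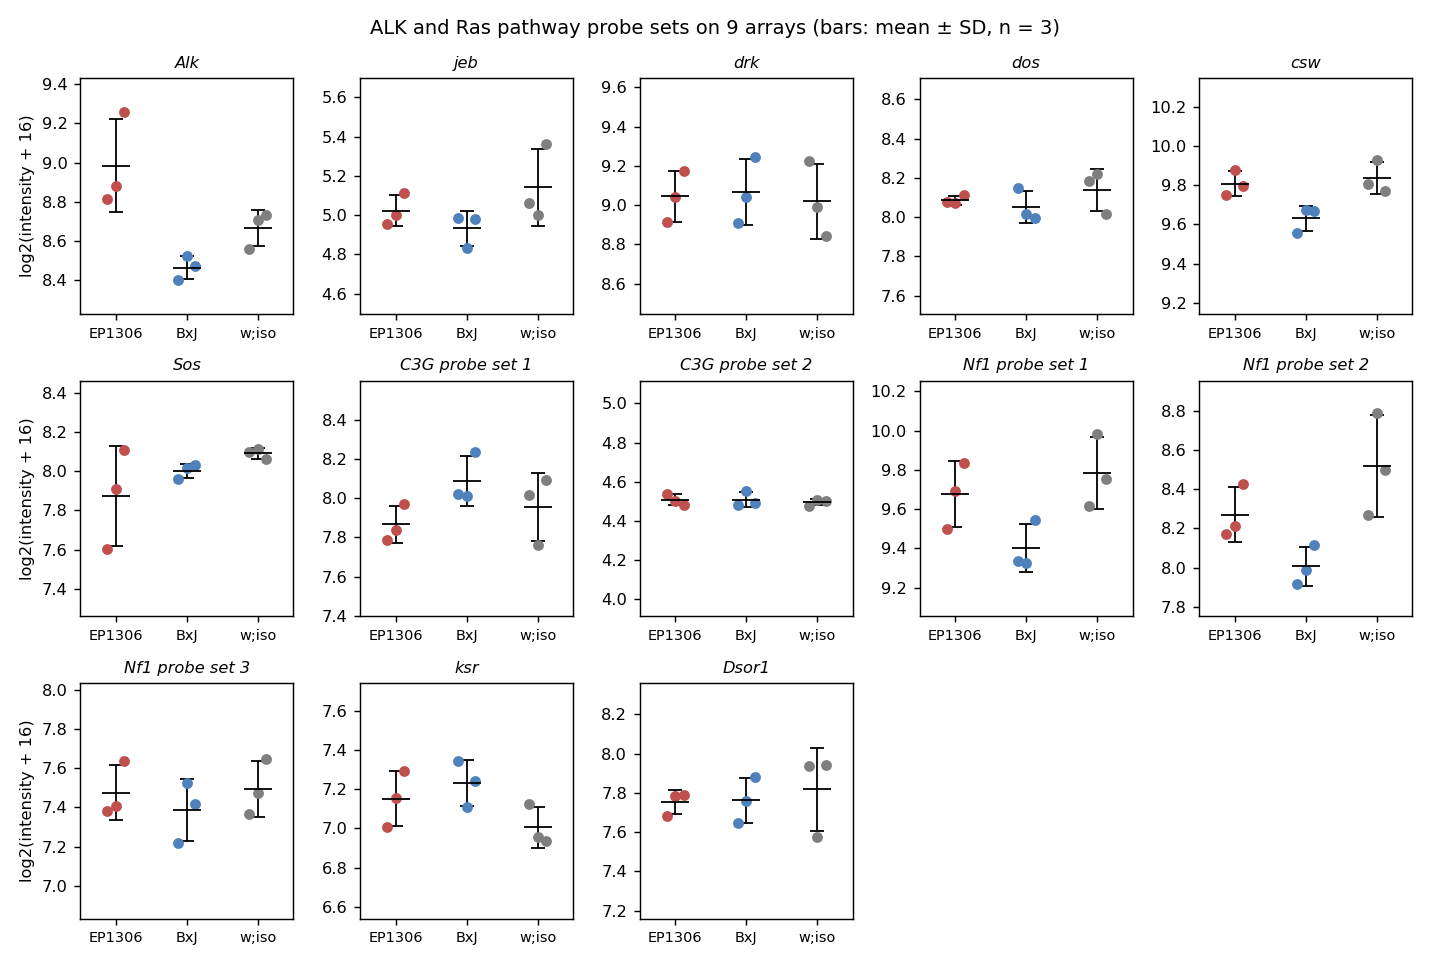
Each panel shows log2 of the intensity plus 16 of a probe set on the 3 *EP1306*, 3 *BxJ* and 3 control arrays, with the mean and SD of each genotype as bars and a vertical range of equal length in all panels. *Alk* has all *EP1306* arrays above and all *BxJ* arrays below those of the control, while *drk*, *dos* and *Dsor1* overlap in all 3 genotypes.

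Over the whole group, no probe set was called. By limma, 0 of 13 differed between *EP1306* and the control, against 1.14% of all probe sets, 0 of 13 between *BxJ* and the control, against 0.288%, and 0 of 13 between the mutants, against 1.23%. By the F-test over the genotypes, 0 of 13 passed, against 1.49%. At an unadjusted p under 0.05 from limma, 1 of 13 differed in *EP1306* (*Alk*, against 9.8% of all probe sets), 3 of 13 in *BxJ* (*csw* and the 2 brighter probe sets of *Nf1*, against 12.1%) and 3 of 13 between the mutants (*Alk*, *csw* and the brightest probe set of *Nf1*, against 10.2%). The unadjusted F-test passed 4 of 13, against 11.9%. The methods' t-test, the test named in the study's methods, passed without adjustment 0 of 13 in *EP1306* (against 6.39% of all probe sets), 5 of 13 in *BxJ* (*Alk*, *csw*, *Sos* and 2 probe sets of *Nf1*, against 10.3% of all probe sets) and 2 of 13 between the mutants (*Alk* and *csw*, against 8.84%). After Benjamini-Hochberg adjustment it passed 0 of 13 in each comparison. Over all probe sets it then passed only 11 in *EP1306*, 0 in *BxJ* and 25 between the mutants. With so few passing anywhere, the 0 of 13 says little about the members.

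The *BxJ* arrays lay wholly below the control arrays for 6 of the 13 probe sets and wholly above them for 0. The 6 were *Alk*, *jeb*, *csw*, *Sos* and the 2 brighter probe sets of *Nf1*. Of all probe sets tested, 27.6% had this order and 3.37% the reverse, and of the 7989 brighter probe sets 16.8% had it and 5.62% the reverse. The *EP1306* arrays lay wholly above the control arrays for 1 probe set, that of *Alk* (4.15% of all probe sets, 7.55% of the brighter ones), and wholly below them for 0 (8.17% and 13.7%). Between the mutants, *EP1306* lay wholly above *BxJ* for 3 (*Alk*, *csw* and the second *Nf1* probe set, against 11.3% of all and 13.8% of the brighter probe sets) and wholly below it for 1 (*C3G* probe set 1, against 6.1% and 11.4%). In their means, 9 of 13 were below the control in *EP1306*, against 63.8% of all probe sets, and 9 of 13 in *BxJ*, against 67.1%. Between the mutants, 5 of 13 were lower in *EP1306*, against 38.4%. The median log2 difference of the members from the control was -0.05 in *EP1306* and -0.09 in *BxJ*, beside -0.01 and -0.02 over all probe sets. Both comparisons share the same control arrays. The 95% limma interval reached from 0.05 to 0.31 on either side of a member's log2 difference, with a median of 0.26, so changes smaller than that were within the error for most members.

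**Figure D2:**
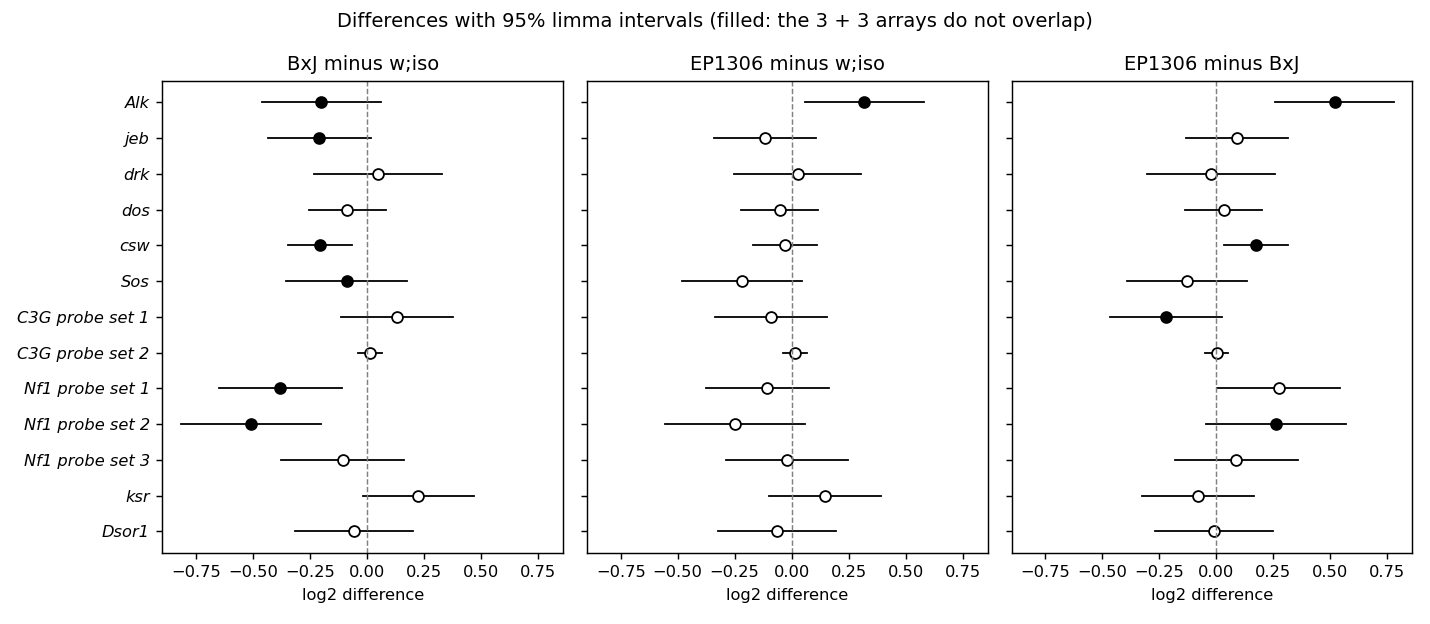
For the 13 probe sets, points give the log2 difference of *BxJ* from the control, of *EP1306* from the control and of *EP1306* from *BxJ*, with 95% limma intervals as lines. Filled points mark probe sets whose arrays do not overlap between the genotypes compared, 6 of 13 in the first panel, 1 of 13 in the second and 4 of 13 in the third.

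*Nf1*, on chromosome arm 3R, had the largest differences between *BxJ* and the control among the members, and its 3 probe sets gave 3 readings of the gene. On probe set 1 the intensity was 707, 812 and 897 in *EP1306*, 630, 626 and 730 in *BxJ* and 769, 995 and 847 in the control. On probe set 2 it was 273, 280 and 329 in *EP1306*, 226, 238 and 261 in *BxJ* and 292, 426 and 346 in the control. On both, every *BxJ* array was below every control array and control replicate 2 was the brightest of all 9. On probe set 3 the intensity ran from 151 to 183 in *EP1306*, from 133 to 168 in *BxJ* and from 149 to 184 in the control, and the genotypes overlapped. The Ras GTPase-activating protein gene thus had log2 differences in *BxJ* of -0.38, -0.51 and -0.11 on probe sets 1, 2 and 3 (standard errors 0.12, 0.13 and 0.12, adjusted p = 0.310, 0.235 and 0.648 from limma). The intervals of the 2 brighter probe sets, -0.65 to -0.11 and -0.82 to -0.20, did not include 0 before adjustment. In *EP1306* the differences were -0.11, -0.25 and -0.02, and the interval of each included 0. Between the mutants they were 0.27, 0.26 and 0.09 (adjusted p = 0.478, 0.567 and 0.842 from limma). Without control replicate 2 the differences in *BxJ* on probe sets 1 and 2 were -0.28 and -0.38, and those in *EP1306* were -0.0087 and -0.11. Without control replicate 1 the differences in *BxJ* were -0.47 and -0.64. Where in the gene each probe set lies was not determined here.

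*csw*, on the X chromosome, encodes Corkscrew, the fly counterpart of the phosphatase SHP2, which passes the signal from activated receptors toward Ras. Its intensity was 843, 924 and 874 in *EP1306*, 737, 799 and 797 in *BxJ* and 880, 959 and 858 in the control. The *BxJ* arrays were below all others, and the *EP1306* arrays overlapped with the control. The log2 difference was -0.20 in *BxJ* (standard error 0.06, adjusted p = 0.285 from limma), -0.03 in *EP1306* (adjusted p = 0.8997) and 0.18 between the mutants (95% interval 0.04 to 0.32, adjusted p = 0.352). For *csw* and for both brighter probe sets of *Nf1*, the exact two-sided permutation test of *BxJ* against the control gave p = 0.1, as it did for *Alk*, *jeb* and *Sos*. This is the smallest value that 3 arrays against 3 allow. Every probe set whose arrays do not overlap reaches it, and 27.6% of all probe sets were wholly lower in *BxJ*.

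The adaptors stayed within the spread of the replicates. *drk*, which encodes the counterpart of the adaptor GRB2 that brings Son of sevenless to the receptor, had intensities of 467 to 562 in *EP1306*, 465 to 592 in *BxJ* and 443 to 581 in the control. *dos*, which encodes Daughter of sevenless, a docking protein of the GAB family and a substrate of Corkscrew, had 253 to 261 in *EP1306*, 239 to 267 in *BxJ* and 243 to 282 in the control. The log2 differences from the control were 0.03 and 0.05 for *drk* and -0.05 and -0.09 for *dos*, in *EP1306* and *BxJ* in that order. The 95% intervals in *BxJ* were -0.23 to 0.33 for *drk* and -0.26 to 0.08 for *dos*, and those in *EP1306* were -0.25 to 0.31 and -0.22 to 0.12. The suffix of the *drk* probe set marks oligonucleotides shared by several transcripts, so part of its signal may come from another transcript.

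The exchange factors differed from each other in how their replicates behaved. *Sos*, whose product activates Ras, had intensities of 179, 224 and 260 in *EP1306*, 233, 243 and 245 in *BxJ* and 258, 261 and 251 in the control. All *BxJ* arrays were below all control arrays by a small margin, whereas the *EP1306* arrays spanned a range wider than both other genotypes. The log2 difference was -0.22 in *EP1306* (95% interval -0.48 to 0.05) and -0.09 in *BxJ* (95% interval -0.35 to 0.17), and without *EP1306* replicate 1 the first of these was -0.08. *C3G*, on the X chromosome, encodes an exchange factor whose known substrate is the Ras relative Rap1. On its brighter probe set the intensity was 205, 213 and 235 in *EP1306*, 244, 242 and 285 in *BxJ* and 243, 201 and 257 in the control. The *EP1306* arrays were below all *BxJ* arrays (log2 difference -0.22, 95% interval -0.47 to 0.02, adjusted p = 0.536 from limma), and the control arrays overlapped with both. The dimmer probe set was between 6.27 and 7.45 on all 9 arrays, under every array median, and gave no usable reading of the gene.

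The members nearest to ERK were *ksr* and *Dsor1*. *ksr*, which encodes the scaffold that holds Raf and MEK together, had intensities of 113, 126 and 141 in *EP1306*, 147, 122 and 135 in *BxJ* and 124, 108 and 106 in the control. Its log2 differences from the control were 0.15 in *EP1306* (95% interval -0.10 to 0.39) and 0.23 in *BxJ* (95% interval -0.02 to 0.47). Without *EP1306* replicate 3, the first of these was 0.0751. Arrays of both mutants overlapped with the control, and the adjusted p-values were 0.709 and 0.436 from limma. *Dsor1*, on the X chromosome, encodes MEK, the kinase that phosphorylates ERK. It had intensities of 190 to 205 in *EP1306*, 185 to 219 in *BxJ* and 175 to 230 in the control, with log2 differences of -0.06 in each mutant (adjusted p = 0.881 in *EP1306* and 0.811 in *BxJ* from limma).

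Neuron markers were also lower in their means in *BxJ*. Over the 5 measured markers (*elav*, *nSyb*, *brp*, *Appl* and *para*, of 6 on the list), the mean log2 intensity ran from 8.28 to 8.35 in *EP1306*, from 8.10 to 8.16 in *BxJ* and from 8.24 to 8.71 in the control. *elav*, which encodes an RNA-binding protein of neuronal nuclei, had intensities of 685, 581 and 547 in *EP1306*, 396, 272 and 422 in *BxJ* and 445, 801 and 727 in the control. *Appl*, which encodes a neuronal amyloid precursor-like protein, had 2258, 2186 and 2521 in *EP1306*, 1836, 1621 and 1975 in *BxJ* and 2171, 2594 and 2723 in the control. *nSyb*, which encodes neuronal synaptobrevin, had a log2 difference of only -0.04 in *BxJ*. The means of all 5 markers were below the control in both mutants, where 63.8% of all probe sets were lower in *EP1306* and 67.1% in *BxJ*, and their smallest adjusted p-values from limma were 0.168 for *Appl* and 0.272 for *elav*, both in *BxJ*. The glial marker mean ran from 11.59 to 11.72 in *EP1306*, from 11.61 to 11.68 in *BxJ* and from 11.69 to 11.82 in the control, with 3 of 5 glial markers below the control in *BxJ*. The fat body marker mean ran from 8.07 to 8.35 in *EP1306*, from 8.32 to 8.55 in *BxJ* and from 7.66 to 8.41 in the control. In *BxJ* the log2 difference was 1.21 for *Lsp2*, which encodes a larval serum protein, and 0.96 for *fit* (adjusted p = 0.345 and 0.414 from limma). The other fat body markers had 0.20 (*apolpp*), 0.03 (*Fbp1*) and -0.01 (*Fbp2*), with *Fbp1* and *Fbp2* below the highest array median. Of 5 muscle markers, 4 were below the control in each mutant. *Act88F* was called in *EP1306* (log2 difference -0.825, adjusted p = 0.00382 from limma), where 1.14% of all probe sets were called. *TpnC4* was higher in both mutants. In RNA from whole heads, fewer cells of a type and less RNA per cell cannot be told apart. The part of any of these cell types in the differences of *Nf1*, *csw* or *Alk* was not tested.

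**Figure D3:**
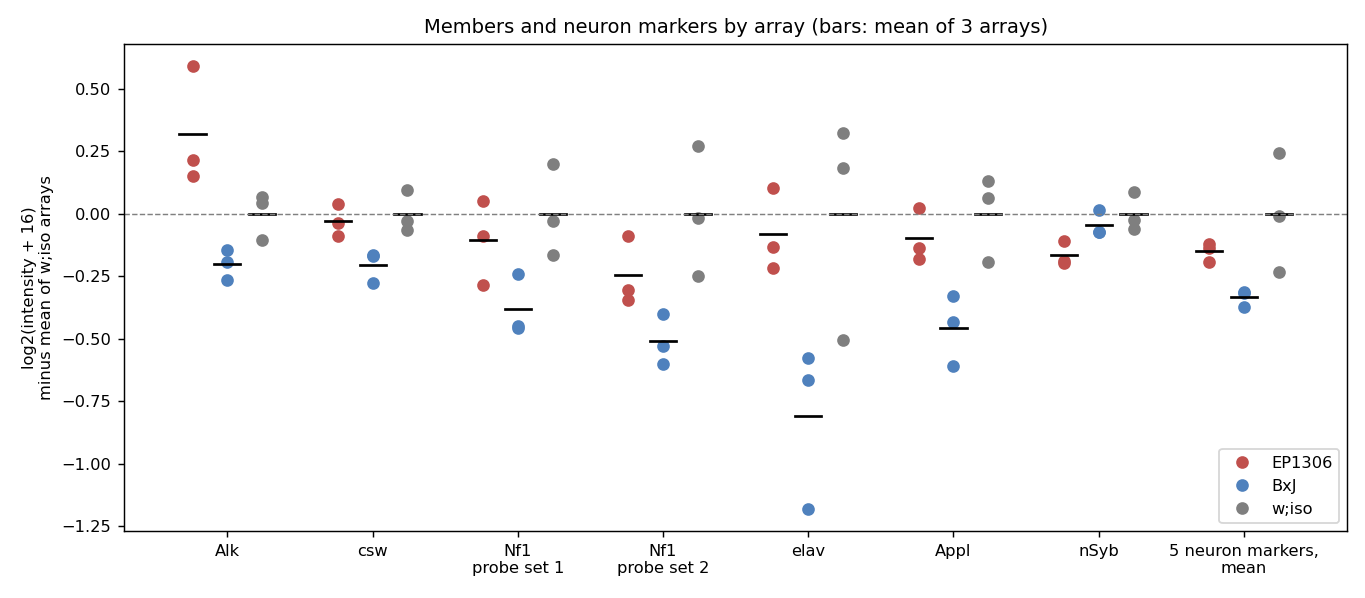
Points are log2 of the intensity plus 16 on each array, relative to the mean of the 3 control arrays, for 4 member probe sets, 3 neuron markers and the mean of 5 neuron markers, with *EP1306*, *BxJ* and the control from left to right in each set and the mean of 3 arrays as a bar. *BxJ* arrays lie below all control arrays for the 4 member probe sets, *elav*, *Appl* and the marker mean, while *nSyb* overlaps, and *Alk* alone has all *EP1306* arrays above those of the control.

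Transcripts of the male accessory gland, an abdominal organ, were also uneven, with mean log2 intensities over 8 markers of 4.77 to 6.11 in *EP1306*, 5.90 to 7.93 in *BxJ* and 4.74 to 5.58 in the control. Of the 8, 6 had a mean above the highest array median and the smallest adjusted p from limma was 0.186, for *Acp62F* in *BxJ*. Leaving out the array of each genotype richest in them gave log2 differences for *Alk* of 0.42 in *EP1306* and -0.18 in *BxJ*. In a fit that also held the spike-in mean of each array, they were 0.31 and -0.21 (adjusted p = 0.708 and 0.883 from limma). Every control array had a higher spike-in mean (at least 9.83) than any mutant array (at most 9.78), so that fit cannot fully separate spike-in level from genotype.

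Further genes of the pathway came from a list of 53, of which 38 had a probe set that names 1 gene only. Among them, 34 had a mean above the highest array median. *Ras85D*, *phl* (Raf), *rl* (ERK), *Src42A*, *pnt* and *Pka-C1* were among the genes of the list for which no such probe set was found. Probe sets that name several genes were not searched, and these genes were not analysed here. Of the 38, limma called 0 in *EP1306* (0.453% of all probe sets were called higher and 0.687% lower), 1 in *BxJ*, which was lower (0.144% higher and 0.144% lower), and 1 between the mutants, higher in *EP1306* (0.554% higher and 0.671% lower). The gene was *Vav* in both, on the X chromosome, which encodes a signaling protein that receptor tyrosine kinases can recruit. Its brighter probe set had intensities of 168, 184 and 230 in *EP1306*, 49.2, 49.0 and 58.4 in *BxJ* and 162, 189 and 193 in the control. On it, *Vav* fell by 1.53 in log2 in *BxJ* (standard error 0.13, adjusted p = 0.00256 from limma) and was 1.61 higher in *EP1306* than in *BxJ* (adjusted p = 0.000847), and its difference in *EP1306* was 0.08 (adjusted p = 0.866). This call in *BxJ* was kept in 9 of 9 fits that left out 1 array. The dimmer *Vav* probe set had intensities of 105, 109 and 114 in *EP1306*, 85.5, 88.8 and 76.6 in *BxJ* and 146, 108 and 106 in the control, with *BxJ* again below all others. It had a log2 difference in *BxJ* of -0.44 (adjusted p = 0.265 from limma) and was not called. *Vav* is X-linked, as is *dLmo*, and is among the transcripts the study selected on these arrays, so its place on the list is not independent of the result.

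The rest of the list is given by role. At an unadjusted p under 0.05 from limma, *EP1306* had 0 of the 38 higher (3.43% of all probe sets) and 2 lower (6.38%). *BxJ* had 1 higher (3.35%) and 5 lower (8.73%). Between the mutants, 7 were higher in *EP1306* (5.25%) and 0 lower (4.96%). *sty*, which encodes Sprouty, an inhibitor that ERK signaling itself induces, had intensities of 722, 776 and 803 in *EP1306*, 608, 608 and 681 in *BxJ* and 713, 707 and 740 in the control. All *BxJ* arrays of *sty* were below all others (log2 difference between the mutants 0.27, adjusted p = 0.113 from limma). *InR*, the insulin receptor gene and a relative of *Alk* in sequence, had 167, 178 and 228 in *EP1306*, 142, 153 and 132 in *BxJ* and 200, 168 and 173 in the control. Its log2 difference was -0.31 in *BxJ* and 0.38 between the mutants (adjusted p = 0.394 and 0.312 from limma). The EGF receptor gene *Egfr* had overlapping arrays, with a log2 difference of 0.34 in *EP1306* and 0.55 in *BxJ* (adjusted p = 0.678 and 0.374 from limma). *Ras64B*, a second Ras-like gene, had -0.12 in *EP1306* and -0.07 in *BxJ* (adjusted p = 0.271 and 0.448). The 14-3-3 genes, whose products bind phosphorylated Raf, had differences in *BxJ* of -0.23 for *14-3-3zeta* and -0.13 for *14-3-3epsilon* (adjusted p = 0.281 and 0.399).

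Among adaptors, *Shc* was ordered by genotype as *Alk* was, with intensities of 255 to 264 in *EP1306*, 232 to 237 in *BxJ* and 237 to 251 in the control that did not overlap. Of all probe sets tested, 0.336% shared this order (0.451% of the brighter ones). The highest *BxJ* array of *Shc* was at 236.9 and the lowest control array at 237.4. Its log2 differences were 0.09 in *EP1306* and -0.05 in *BxJ* (adjusted p = 0.669 and 0.636 from limma). Of the phosphatase genes, *Ptp10D* had -0.39 in *EP1306* and -0.06 in *BxJ*, and *Ptp61F* had -0.04 and 0.13. The scaffold gene *ave* had 0.18 and 0.02. *cic*, which encodes a repressor that ERK inactivates, had 0.06 and 0.29 (adjusted p = 0.420 in *BxJ* from limma). Every *BxJ* array of *cic* was above every control array, as for 3.37% of all and 5.62% of the brighter probe sets. Among 5 genes induced by ALK in the embryonic visceral muscle, *kirre* had 0.08 in *EP1306* and -0.14 in *BxJ*, and *dpp* had 0.20 and -0.08. The median over the 5 was -0.0032 in *EP1306* and -0.04 in *BxJ*. Of the 5, *Hand* (intensity 5.33 to 5.99) and *org-1* (5.55 to 8.49) were under every array median and gave no usable reading. The median in *EP1306* is the value of *Hand*, so it says little about these genes. In the cyclic AMP pathway, in which neurofibromin also acts, *rut*, which encodes an adenylyl cyclase, had -0.25 in *EP1306* and 0.08 in *BxJ*, and *dnc*, which encodes a phosphodiesterase, had 0.07 and -0.20. Over the 9 genes whose differences are given in this paragraph and the 3 comparisons, the smallest adjusted p from limma was 0.392, for *Shc* between the mutants. The median over all 38 genes was 0.05 in *EP1306*, -0.04 in *BxJ* and 0.06 between the mutants, beside -0.01, -0.02 and 0.01 over all probe sets.

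**Figure D4:**
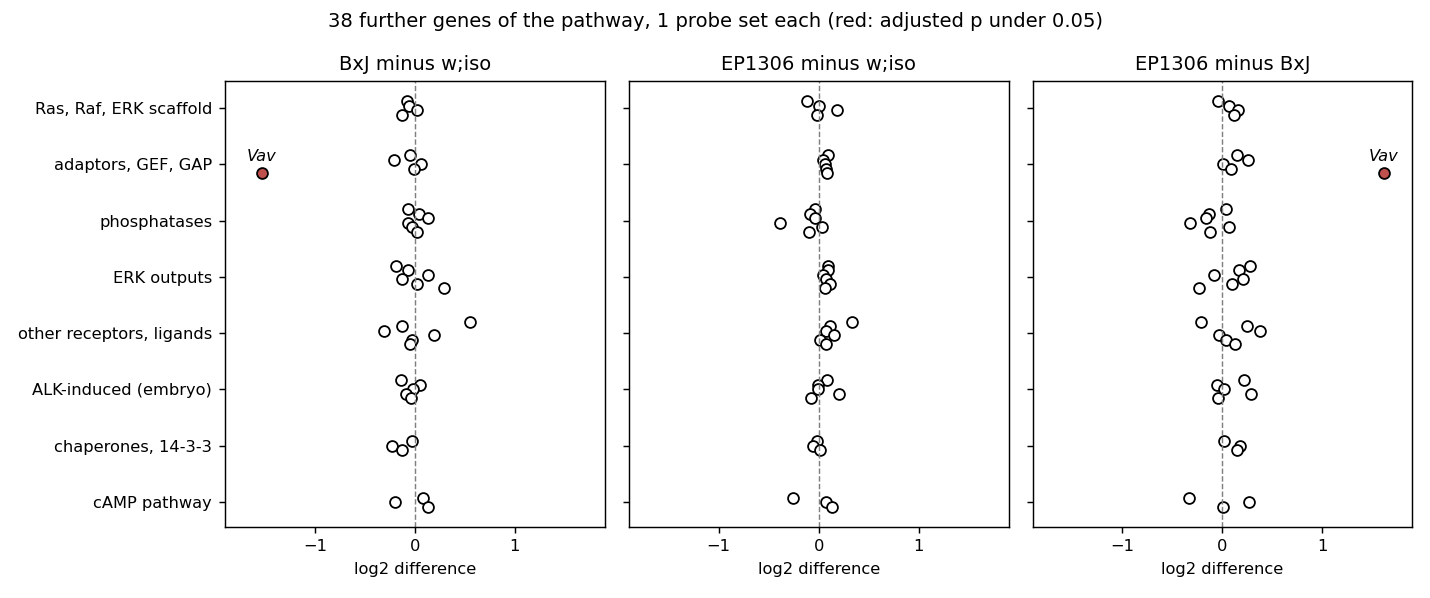
Points are the log2 differences of 38 further pathway genes, 1 probe set each, grouped by role, with *BxJ* against the control, *EP1306* against the control and *EP1306* against *BxJ* in separate panels. *Vav* is the gene with an adjusted p under 0.05, at -1.53 in *BxJ* and 1.61 between the mutants.

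Over the 9 arrays, the 5 genes with the profile most like that of *Alk*, among 6960 probe sets with 1 named gene and a mean of at least 6, were *mio*, *Trissin*, *Tmx3*, *CG8854* and *DCX-EMAP*, with Pearson correlations of 0.954, 0.944, 0.941, 0.940 and 0.937. These are the highest of many correlations over arrays that share 3 genotypes and are a description. *Trissin*, which encodes a neuropeptide, had log2 differences of 0.14 in *EP1306* and -0.11 in *BxJ*. *Tmx3*, which encodes a thioredoxin-related membrane protein, had 0.20 and -0.16, and *mio* had 0.12 and -0.10.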

How the data were processed

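Heads of adult male flies of 3 genotypes were measured on 9 Affymetrix arrays. The authors deposited 1 linear intensity for each of 18952 probe sets, made with MAS5 (the version, and any later normalization, are not given in the sources used here). After removal of 183 control probe sets, values were taken as log2 of the deposited intensity plus 16. No scaling followed, since array medians differed by no more than 0.0818 on this scale, inside the limit of 0.1. The median intensities lay between 15.9 and 17.8, close to the 16 added, which narrows their difference in log2. The check therefore says little about the scale of brighter probe sets. limma 3.58.1 (R 4.3.3) estimated the genotype means from all 9 arrays together, with eBayes and an intensity trend. The fit was also run on simulated arrays with independent noise. That check required recovery only of changes larger than any member difference, so it does not cover differences of the members' size. Single probe sets were also tested by exact permutation. Symbols come from the platform annotation, which names 1 gene for 13647 probe sets, and chromosomes from a RefSeq gene table of another build, whose coordinates were not used. Every member probe set is reported, with partner genes called in a comparison or, in each role, the 2 with the smallest F-test p. For partners the brightest probe set stands for the gene. The members, lists and rule were chosen with earlier results of these data known. Alternatives were other added numbers, scalings, filters, priors and tests, the replicate block, a fit of 2 genotypes, the spike-in covariate and leaving out arrays. Sequences of the members were not used here.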

Additional observations from a re-analysis of the deposited data

Results flagged for a closer look

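*Alk* drew attention because every *EP1306* array lay above the mean of the control arrays and every *BxJ* array below it. The log2 difference between *EP1306* and *BxJ* was 0.52, with 0.32 in *EP1306* and -0.20 in *BxJ* relative to the control. The test of the difference between the mutants gave an adjusted p of 0.0988 from limma, which does not pass 0.05. Of all 18769 probe sets, 2.05% had their arrays on the same sides of the control mean and 1.07% on the opposite sides. No other member had this pattern. With 3 arrays for each genotype, single arrays could not be tested as outliers.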

How the results depend on the processing

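No member was called in any comparison under any of the limma alternatives except the filter on low values, which left 7989 probe sets to test and under which 1 member, *Alk*, was called between *EP1306* and *BxJ* (log2 difference 0.52, adjusted p = 0.0282) and 1 by the F-test. The methods' t-test without adjustment passed 5 of 13 member probe sets in *BxJ* (10.3% of all probe sets) and 2 between the mutants (8.84%), and the methods' ANOVA passed 3 (10.1%). By the methods' t-test without adjustment, *Alk* was among those that passed in *BxJ* (-0.20) and between the mutants (0.52). Over the other alternatives the adjusted p of *Alk* between the mutants ran up to 0.453. Over all probe sets, 214 were called in *EP1306*, 54 in *BxJ* and 230 between the mutants. In the same order the counts were 427 and 135 with the filter (the count between the mutants stayed within 1.5 times), 88, 15 and 153 with only the genotypes compared, 1199, 1936 and 1660 by the methods' t-test, 11, 0 and 25 by it after adjustment, and 49 and 5 with the spike-in covariate. Without the 3 arrays richest in accessory gland transcripts, 35 were called in *EP1306* and 130 between the mutants. Leaving out 1 array gave 103 to 247 in *EP1306*, 21 to 127 in *BxJ* and 113 to 231 between the mutants. The cause of these shifts was not tested.

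Small member differences turned direction. With median centring, *C3G* probe set 2 in *BxJ* was at -0.0092, and between the mutants *drk* was at 0.0142 and *Dsor1* at 0.0282. With quantile normalization, *csw* in *EP1306* was at 0.0024, and between the mutants *C3G* probe set 2 was at -0.0019 and *Dsor1* at 0.0151. Leaving out 1 array gave, in *EP1306*, *drk* -0.0615 to 0.13, *csw* -0.0642 to 0.017, *Nf1* probe set 3 -0.10 to 0.0566 and *C3G* probe set 2 -0.0008 to 0.0275. In *BxJ* it gave *drk* -0.0419 to 0.15, *Dsor1* -0.18 to 0.0065 and *C3G* probe set 2 -0.0089 to 0.0258. Between the mutants it gave *drk* -0.10 to 0.0679, *Sos* -0.245 to 0.0062, *Dsor1* -0.0652 to 0.0502 and *C3G* probe set 2 -0.0138 to 0.0235. The directions of *Alk*, *jeb*, *dos*, *ksr*, *C3G* probe set 1 and the 2 brighter *Nf1* probe sets held in every alternative run.

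Whether the replicate numbers pair the arrays could not be decided. The deviations of same-numbered arrays from their genotype means correlated between -0.38 and 0.29. For differently numbered arrays the range was -0.43 to 0.46. Deviations from a genotype mean cancel out within the genotype, which ties these correlations to each other, so they cannot exclude a pairing. With the replicate as a block, 0 members were called, and the log2 difference of *Alk* between the mutants stayed at 0.52 (adjusted p = 0.0686 from limma). For the low signals of *jeb* and *C3G* probe set 2, the number added decides the size: *jeb* in *BxJ* was at -0.38 with 1 added and -0.09 with 64.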
